A study of Mus musculus with 17 samples.

Results

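Hematopoietic stem cells (HSCs) titled C/EBPa KO were compared between day 21 and day 7 after injection of pIpC, a synthetic double-stranded RNA commonly given to induce a Cre recombinase. The samples were chosen by their titles, and gave 4 arrays of KO HSCs at day 21 and 3 at day 7, so 7 of the 17 arrays of the series. Autosomal genes only are described. Adult HSCs had been sorted from mice as lineage-negative, Sca1+, cKit+, CD150+ and CD48- cells, called SLAM+KSLs in the titles, and their amplified RNA was hybridised to Affymetrix arrays. Controls titled as such, with the genotype wild type, were measured at the same days (3 arrays at day 7 and 4 at day 21) and serve here as the background of a change with time. The remaining 3 arrays hold fetal liver HSCs, which enter the fit behind the reported p-values and are compared for Meg3 and Rian. KO is the word of the titles, which name C/EBPa, while the same samples have the genotype entry Pu.1 knock-in (PU.1ki/ki), so these labels contradict each other. The labels give no Cre driver, strain, exact age or sex of the animals, nor whether an array holds 1 animal or a pool. The p-values therefore measure spread among arrays, which may be technical.

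C/EBPa is a basic leucine zipper transcription factor, best known for directing progenitors towards granulocytes and for restraining the cell cycle. Adult HSCs are mostly quiescent, and CD34 is low on mouse HSCs with long-term activity and higher on progenitors. Some HSCs carry megakaryocyte genes such as Vwf and Itga2b at the RNA level. pIpC itself elicits a burst of interferon that passes within days. Within KO cells the time since that burst and the time since deletion cannot be told apart. The controls received pIpC too, per their source names. Their change between days holds the time since the burst, but also a difference in sex-linked transcripts, given below.

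Values are log2 of the deposited intensity, on which the lowest value of the table, a floor, is 4, and a difference is the mean of day 21 minus the mean of day 7. Cebpa, the gene for C/EBPa, stood at 5.0, 4.96 and 4.37 on the 3 KO arrays of day 7 and at 4.74, 4.90, 4.64 and 5.32 on the 4 of day 21. All 7 were below all 7 control arrays, which ran from 6.85 to 9.06. Between days the KO level differed by 0.12 (SE 0.51, 95% confidence interval −0.98 to 1.23), with overlapping groups. The labels do not tell whether this probe set covers deleted sequence. Spi1, which encodes PU.1, differed by −0.30 (SE 0.44) between days, with values of 8.44, 8.85 and 8.40 at day 7 and 8.63, 7.94, 8.62 and 7.85 at day 21.

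Transcripts of the sex chromosomes set the days apart in KO and in control alike. Xist, transcribed from the inactive X, lay between 12.53 and 12.90 on all 8 day 21 arrays, where the Y-linked Eif2s3y was at the floor. On day 7 arrays Xist lay between 4.92 and 5.62 and Eif2s3y between 8.27 and 9.02, except on KO day 7 replicate 1, which had both Xist at 12.26 and Eif2s3y at 7.02. Time since injection and the sex of the animals therefore cannot be told apart in any difference between days, and 1 of the 3 KO day 7 arrays carries transcripts of both. Among the sort's markers, Kit (8.79 to 9.74) and Slamf1, which encodes CD150 (7.37 to 9.30), were well above the floor on all 7 KO arrays. Cd48 was not at the floor either (5.93 to 8.27). Markers of mature cells differed among themselves. Adgre1 and Ms4a1 were at the floor on all 7 KO arrays and Itgam on 6, while platelet genes were high on all 7 (Pf4 9.56 to 11.70, Itga2b 8.46 to 10.56, Gp9 7.56 to 8.59). Further markers were high on some arrays of either day, with Csf1r up to 9.18, Slc4a1 up to 8.11, Mpo up to 7.98 and C1qb up to 7.76. Correlations between KO arrays over all genes ran from 0.893 to 0.952 across days, 0.919 to 0.948 within day 7 and 0.900 to 0.947 within day 21, and KO day 21 replicate 2 had the lowest mean correlation with its own group (0.909).

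Between day 7 and day 21, 2 autosomal genes passed the test in KO HSCs, and both rose: Ufsp1, which encodes a protease that processes the ubiquitin-like modifier UFM1, and Ache, which encodes acetylcholinesterase. They were 2 of 16116 autosomal genes tested (0.0124%), at a Benjamini-Hochberg adjusted limma p under 0.05 over all 16784 genes, and no autosomal gene passed as lower. With the Y-linked Eif2s3y, 3 of all 16784 genes passed (0.0179%). Ufsp1 stood at 5.53, 6.0 and 6.21 on the day 7 KO arrays and at 8.40, 9.28, 8.94 and 8.82 on the day 21 arrays. The groups lay far apart, with more than 2 log2 units between the highest day 7 and the lowest day 21 array. Its log2 difference was 2.95 (SE 0.40, adjusted p = 0.0376), a fold of 7.72, from a mean intensity of 61.4 ± 14.1 (SD, n = 3) to 476 ± 117 (SD, n = 4). Ache stood at 6.53, 6.31 and 6.38 at day 7 and at 9.51, 8.48, 9.57 and 9.23 at day 21. Its log2 difference was 2.79 (SE 0.40, adjusted p = 0.0482), a fold of 6.93, from 84.9 ± 6.78 (SD, n = 3) to 612 ± 183 (SD, n = 4).

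Neither gene had such a difference in control HSCs, where day 21 minus day 7 was 0.41 for Ufsp1 and −0.42 for Ache. The control arrays lay between 5.33 and 7.51 for Ufsp1 and between 5.29 and 7.20 for Ache, below every KO day 21 array. The test of the difference between the KO and the control change gave 3.22 for Ache (SE 0.57, unadjusted p = 7.1e-05, adjusted p = 0.341) and 2.54 for Ufsp1 (SE 0.57, unadjusted p = 5.6e-04, adjusted p = 0.534), so neither passed over all genes. At day 7 KO and control differed little, by −0.02 (SE 0.43) for Ache and −0.32 (SE 0.43) for Ufsp1, and the KO arrays of day 7 enter these values too. Ufsp1 has another probe set, at 6.66, 6.08 and 6.01 at day 7 and 6.43, 6.65, 8.05 and 6.67 at day 21, whose difference of 0.70 (SE 0.38, unadjusted p = 0.0858) did not pass. With the mean of all its probe sets Ufsp1 differed by 1.83. Ache had 1 probe set.

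Both calls lie close to the threshold. With p-values adjusted over autosomal genes alone both stand at an adjusted p of 0.0694, since the Y-linked Eif2s3y then no longer ranks above them. Without KO day 7 replicate 1, the array with both Xist and Eif2s3y, the differences were 2.76 for Ufsp1 and 2.86 for Ache, both at adjusted p = 0.0803. Leaving out any other single KO array gave Ufsp1 2.81 to 3.10 (adjusted p = 0.0470 without KO day 21 replicate 1, the one such array whose absence kept a call, and otherwise 0.0809 without KO day 7 replicate 3 to 0.161 without KO day 21 replicate 4) and Ache 2.67 to 3.03 (adjusted p from 0.0505 without KO day 21 replicate 2 to 0.232 without KO day 7 replicate 3). Without the 3 fetal liver arrays in the fit, the adjusted limma p was 0.217 for Ufsp1 and 0.239 for Ache. With only the 7 KO arrays in the fit it was 0.141 and 0.149. On leaving out arrays direction and size thus held, while the side of the threshold did not. Averaged over its probe sets, the Ufsp1 difference was 1.83.

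**Figure D1:**
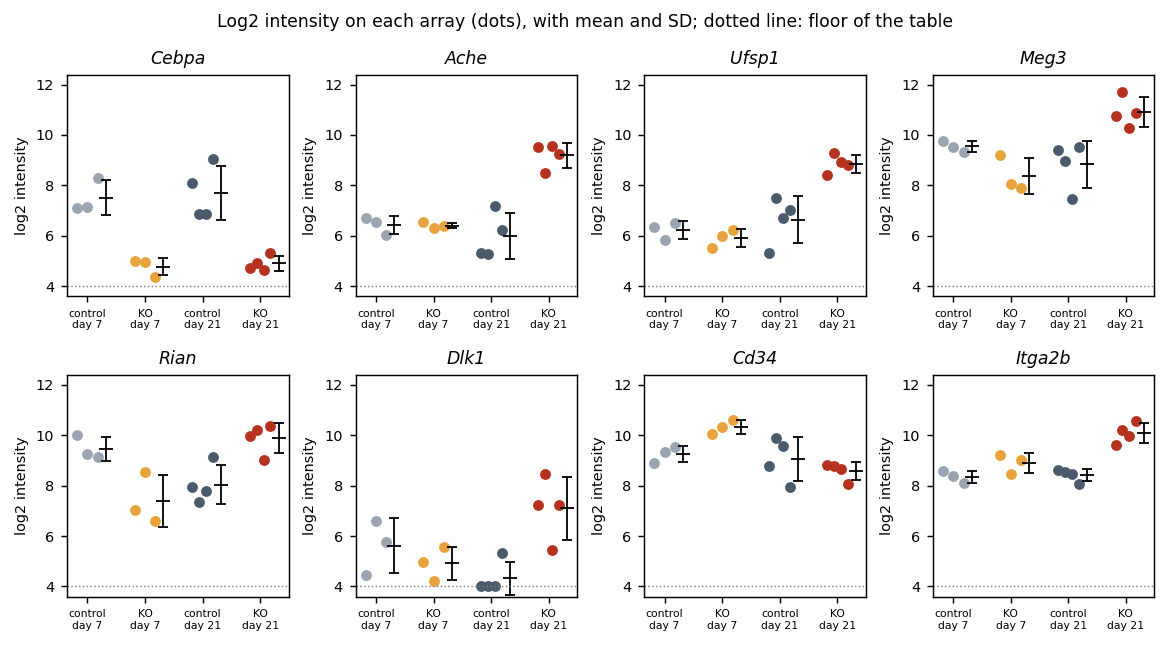
Log2 intensity (y axis) of 8 genes on each array of the 4 adult groups (x axis), dots for arrays, with mean and SD beside them and the floor of 4 as a dotted line. Ache and Ufsp1 are high on the 4 KO day 21 arrays alone, Meg3 and Rian are highest there, and Cebpa is low on all 7 KO arrays.

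Ache and Ufsp1 are neighbours on chromosome 5, on the same strand, with Ufsp1 next after Ache in the RefSeq annotation and with spans that do not overlap. Of 17 further genes tested among the neighbours on both sides, none passed, and their differences ran from −1.23 for Znhit1 (unadjusted p = 0.0268) to 0.51 for Pop7. The nearest tested genes were Muc3 before Ache, with 0.15 (SE 0.15), and Srrt directly after Ufsp1, with 0.00 (SE 0.35). Annotated genes between Muc3 and Ache were not tested.

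The 250 bases before the annotated start are shown for this pair and for 3 genes of the imprinted cluster described next, as both sets hold adjacent genes that were high together at day 21. They are RefSeq sequences of GRCm38.p6, 5′ to 3′. Capitals mark matches, on either strand, to GATAA (GATA factors), TGACGTCA (CREB and ATF factors), TTNNGNAA (C/EBP factors) or CACGTG (an E-box).
Ache (chr5:137288004-137288253, + strand): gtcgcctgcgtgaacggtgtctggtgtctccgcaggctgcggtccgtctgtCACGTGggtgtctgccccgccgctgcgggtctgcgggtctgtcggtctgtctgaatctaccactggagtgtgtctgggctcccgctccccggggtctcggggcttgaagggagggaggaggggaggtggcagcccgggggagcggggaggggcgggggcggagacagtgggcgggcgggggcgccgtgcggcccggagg
Ufsp1 (chr5:137294419-137294668, + strand): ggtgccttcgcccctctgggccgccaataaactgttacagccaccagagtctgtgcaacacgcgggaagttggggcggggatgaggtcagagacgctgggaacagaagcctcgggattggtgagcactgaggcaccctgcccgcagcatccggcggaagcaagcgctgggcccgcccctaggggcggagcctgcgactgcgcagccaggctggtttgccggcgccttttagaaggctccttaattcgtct
Dlk1 (chr12:109452573-109452822, + strand): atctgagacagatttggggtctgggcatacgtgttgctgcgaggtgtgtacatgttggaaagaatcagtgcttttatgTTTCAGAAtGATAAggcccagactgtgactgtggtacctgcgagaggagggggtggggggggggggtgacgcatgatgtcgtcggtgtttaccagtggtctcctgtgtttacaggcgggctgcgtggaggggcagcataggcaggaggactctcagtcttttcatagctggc
Meg3 (chr12:109540746-109540995, + strand): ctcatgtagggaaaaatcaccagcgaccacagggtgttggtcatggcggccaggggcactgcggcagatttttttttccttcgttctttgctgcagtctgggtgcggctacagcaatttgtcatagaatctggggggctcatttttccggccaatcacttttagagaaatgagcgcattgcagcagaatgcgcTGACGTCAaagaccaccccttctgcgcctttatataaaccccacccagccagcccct
Meg3, second start (chr12:109545148-109545397, + strand): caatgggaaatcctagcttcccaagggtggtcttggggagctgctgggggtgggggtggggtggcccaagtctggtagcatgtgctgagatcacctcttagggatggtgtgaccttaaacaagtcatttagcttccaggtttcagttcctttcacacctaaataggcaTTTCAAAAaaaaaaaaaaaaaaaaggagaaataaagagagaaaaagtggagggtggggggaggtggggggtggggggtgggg
Rian (chr12:109603695-109603944, + strand): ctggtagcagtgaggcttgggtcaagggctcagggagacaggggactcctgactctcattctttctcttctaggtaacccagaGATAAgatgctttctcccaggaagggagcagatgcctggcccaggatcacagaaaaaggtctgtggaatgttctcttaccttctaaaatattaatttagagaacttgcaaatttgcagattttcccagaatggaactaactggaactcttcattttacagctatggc
Ache held 1 match, to CACGTG, 199 bases before the start, and Ufsp1 held none of the 4. Meg3 has 2 annotated starts in the table, both shown. Its first window held TGACGTCA 57 bases before the start, and its second held no TGACGTCA but 1 match to TTNNGNAA, 82 bases before the start. TGACGTCA is a word found in 1.58% of 31396 autosomal windows of this length. Rian held GATAA (167 bases before the start), as did Dlk1 (163 bases), next to a match to TTNNGNAA at 172 bases, and no matches overlapped. GATAA was found in 22.4% of all windows, TTNNGNAA in 36.7% and CACGTG in 6.02%. The Ache window had 73.6% G and C with 25 CpG, that of Ufsp1 64.4% with 18, and those of Dlk1, Meg3 and Rian 54.8% with 8, 52.4% with 10 (first start; 50% with 0 for the second) and 45.2% with 0. A match describes letters in a window, and no factor's binding was measured.

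Among the higher genes of next smallest p were Meg3 and, after Hpn, Rian, maternally expressed noncoding RNAs of the imprinted Dlk1-Dio3 cluster on chromosome 12, a locus known for its part in fetal and adult HSC maintenance. Meg3 stood at 9.20, 8.05 and 7.88 on the day 7 KO arrays and at 10.75, 11.72, 10.29 and 10.87 on those of day 21. Its groups did not overlap, and its log2 difference was 2.53 (SE 0.49, unadjusted p = 1.6e-04, adjusted p = 0.379). Rian stood at 7.05, 8.56 and 6.59 at day 7 and at 9.97, 10.20, 9.01 and 10.35 at day 21, again without overlap. Its difference was 2.48 (SE 0.50, unadjusted p = 2.3e-04, adjusted p = 0.379). Neither passed over all genes. Dlk1, the paternally expressed gene of the cluster, encodes a membrane protein of the Notch ligand family. Its values were 4.96, 4.23 and 5.56 at day 7 and 7.24, 8.47, 5.44 and 7.25 at day 21, with overlap at 1 array, and a difference of 2.18 (SE 0.83, unadjusted p = 0.0207). Mirg, a further noncoding RNA of the cluster, differed by 0.20 (SE 0.64).

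In control HSCs the same genes had differences below 0, with −0.71 for Meg3, −1.41 for Rian and −1.28 for Dlk1. The KO change minus the control change was 3.25 for Meg3 (SE 0.69, unadjusted p = 3.8e-04), 3.89 for Rian (SE 0.70, unadjusted p = 8.5e-05, adjusted p = 0.341) and 3.46 for Dlk1 (SE 1.18, unadjusted p = 0.0112). None of the 3 passed over all genes. KO minus control was −2.06 (SE 0.53) for Rian at day 7 and 1.84 (SE 0.46) at day 21, values which share the KO arrays with the difference between days. Fetal liver HSCs of the series, from E15.5 embryos and sorted with low Mac-1 as a further marker, stood at 9.91, 10.41 and 10.94 for Meg3 and at 9.74, 9.15 and 9.56 for Rian, so for both genes the KO arrays of day 7 lay below all fetal arrays and those of day 21 overlapped them. Meg3 has 11 probe sets. Beside the one used, those above 9 on the day 21 mean differed by 2.42 (SE 0.95), 2.93 (SE 0.87) and 2.29 (SE 0.73), whereas several dim ones, one of them at the floor on all KO arrays, differed by less than 1 log2 unit. With the mean of all probe sets the differences were 1.12 for Meg3, 1.58 for Rian and 1.26 for Dlk1.

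**Figure D2:**
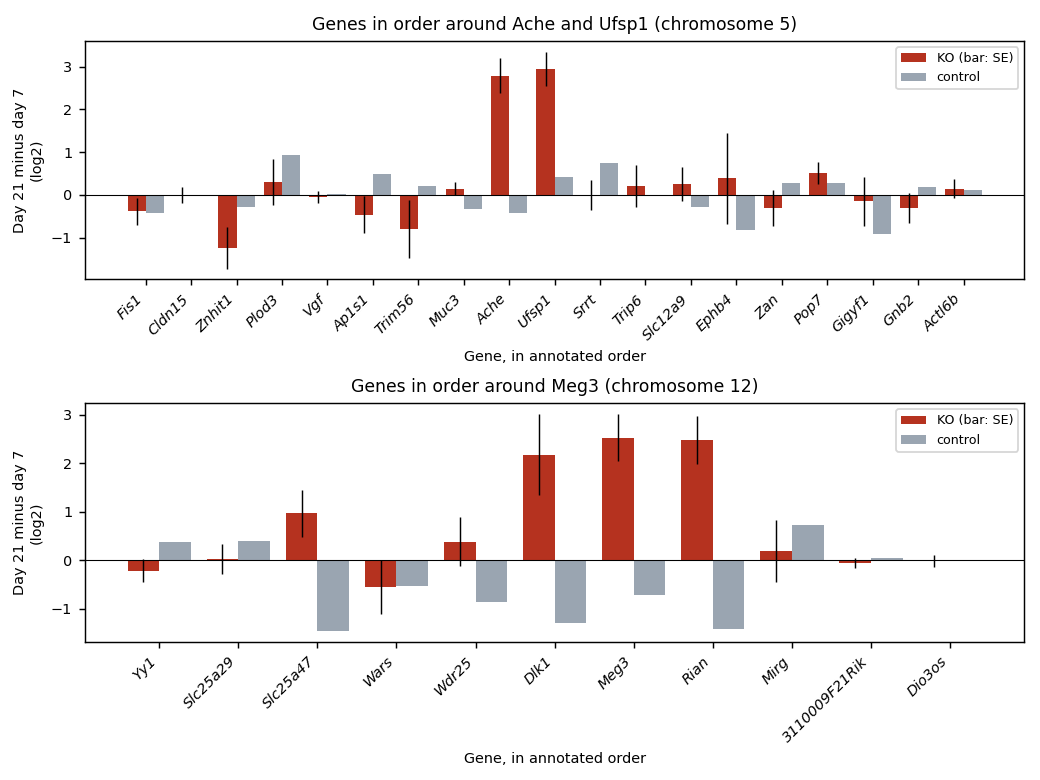
Log2 difference between day 21 and day 7 (y axis) of tested genes in annotated order (x axis) around Ache and Ufsp1 on chromosome 5 (top) and around Meg3 on chromosome 12 (bottom), KO in red with its SE and control in grey. Ache and Ufsp1 stand apart from the 17 other genes, and Dlk1, Meg3 and Rian are above 2 in KO and below 0 in control.

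Over all autosomal genes, 655 (4.06%) had an unadjusted limma p under 0.05 between the days in KO HSCs, 276 of them higher at day 21 (1.71%) and 379 lower (2.35%). At that threshold about 1 in 20 genes is found in data without differences, so single genes below are described by their values and are not called. The 4 arrays of day 21 lay wholly above the 3 of day 7 for 516 genes (3.20%) and wholly below for 652 (4.05%). The sign was positive for 7691 (47.7%), and the median difference was 0.00. An exact permutation test on 4 against 3 arrays could not go below a two-sided p of 0.0571.

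Further genes with non-overlapping groups and the smallest p included, among the higher, Hpn, which encodes the serine protease hepsin. It stood at 6.23, 6.79 and 5.81 at day 7 and at 7.14, 9.06, 8.49 and 8.53 at day 21, a difference of 2.03 (SE 0.40, unadjusted p = 1.7e-04), against −0.05 in control. Hepsin is abundant in liver, and the list of hepatocyte genes had a median of −0.09 over 11 genes. Thoc5, a subunit of the THO complex of mRNA export, needed for HSC survival, differed by 1.53 (SE 0.36), from 6.94 to 7.37 at day 7 to 8.09 to 9.28 at day 21. In control HSCs it had −1.33. The zinc transporter gene Slc39a3 differed by 1.32 (SE 0.30) but by −0.49 (SE 0.41) on its other probe set, Proca1 by 1.15 (SE 0.29) and Scaf4, which encodes a factor that prevents early transcript termination, by 1.12 (SE 0.28). All of these had adjusted p-values of 0.379 or above.

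Among the lower genes, Cd34, which encodes the surface sialomucin that separates short-term from long-term HSCs in the mouse, stood at 10.04, 10.34 and 10.60 at day 7 and at 8.81, 8.80, 8.65 and 8.06 at day 21. Its groups did not overlap, and its log2 difference was −1.75 (SE 0.42, unadjusted p = 9.9e-04, adjusted p = 0.871), 3.36-fold lower at day 21. In control HSCs Cd34 differed by −0.21, and the KO change minus the control change was −1.54 (SE 0.59). That value holds the KO difference between days by which Cd34 was picked, so it is not independent of it. Rasgrp1, which encodes a guanine nucleotide exchange factor of Ras, stood at 7.18, 6.47 and 6.36 at day 7 and at 5.33, 5.82, 5.35 and 5.22 at day 21. Its difference was −1.24 (SE 0.23, unadjusted p = 1.3e-04, adjusted p = 0.379), and control HSCs, at 5.15 to 5.83 on all 7 arrays, showed 0.24. Dusp6, the phosphatase of ERK that is itself induced by ERK signalling, stood at 9.71, 9.81 and 9.38 at day 7 and at 7.54, 6.35, 8.44 and 7.80 at day 21. Its difference was −2.10 (SE 0.42, unadjusted p = 2.0e-04), and in control it was −1.08, also below 0.

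Dync2li1, a light chain of the dynein of cilia, had the lowest difference among the named genes of this rank, −2.69 (SE 0.64), with 7.98, 6.98 and 6.96 at day 7 and 4.12 to 5.07 at day 21. The helicase and nuclease gene Dna2 differed by −1.40 (SE 0.33) and Ptgr1, a reductase of prostaglandins and leukotrienes, by −1.97 (SE 0.47). Aida differed by −1.76 (SE 0.42), but by −0.14 (SE 0.50) on its other probe set. The unnamed transcript 9930104L06Rik differed by −1.65 (SE 0.38) and the caveolin gene Cav2 by −0.80 (SE 0.19). In control HSCs the differences were −0.12 for Dync2li1, 0.23 for Dna2, −1.04 for Ptgr1, 0.46 for Aida, and −0.37 for 9930104L06Rik and for Cav2. KO minus control at day 7 and then at day 21 was 2.21 and −0.35 for Dync2li1 and 1.97 and −0.26 for Aida. It was 1.40 and 0.12 for 9930104L06Rik, 0.69 and −0.24 for Ptgr1, 0.85 and −0.78 for Dna2, and −0.16 and −0.59 for Cav2. These values share the KO arrays with the difference between days by which the genes were picked. Gimap7, a GTPase gene of lymphocytes, was at the floor on all 4 day 21 KO arrays and at 4.36, 6.93 and 6.04 at day 7. Its control difference was 0.11. Without KO day 7 replicate 1, Gimap7 (−2.48, SE 0.31, adjusted p = 0.0114) and Cav2 (−1.06, SE 0.15, adjusted p = 0.0228) passed over all genes, with Hoxa2 (−1.35, SE 0.18, adjusted p = 0.0137), while Ache and Ufsp1 did not. Hoxa2, named after its values were seen, was at the floor on that array and on all 4 of day 21.

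**Figure D3:**
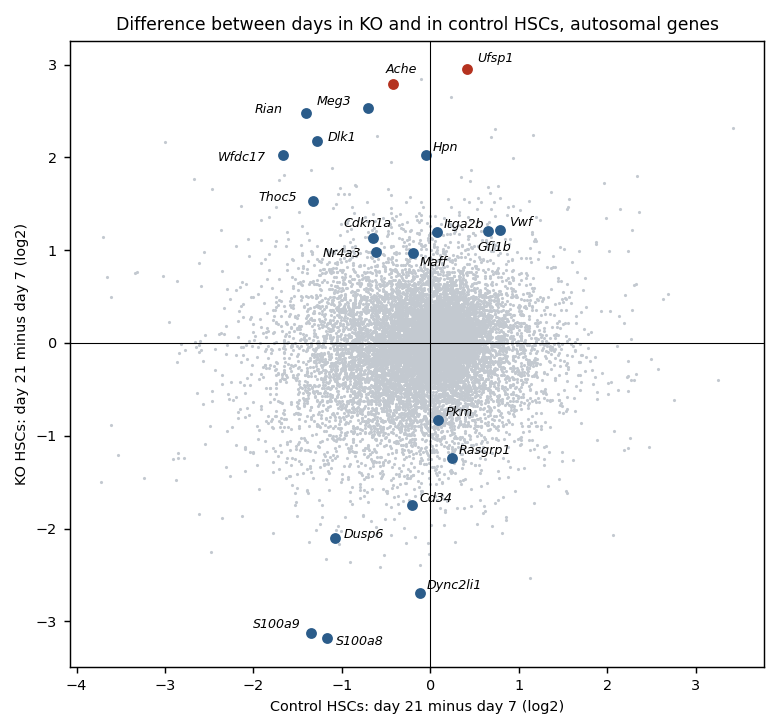
Log2 difference between day 21 and day 7 in KO HSCs (y axis) against that in control HSCs (x axis) for 16116 autosomal genes, with named genes marked and the 2 called genes in red. Most genes lie near 0 on both axes. Ache and Ufsp1 are high on the KO axis alone, and Meg3, Rian and Dlk1 lie above 2 in KO and below 0 in control.

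Set against the change with time in control HSCs, which shares no array with that in KO HSCs, no autosomal gene's change differed between KO and control over all genes (0 of 16116, 0%; the smallest adjusted limma p was 0.341), and 725 (4.50%) had an unadjusted p under 0.05. Of these 426 had the higher change in KO (2.64%) and 299 the lower (1.86%). In control HSCs 3 autosomal genes were called (0.0186%) and 1303 had an unadjusted p under 0.05 (8.09%), with 48.2% of genes higher at day 21. Across the 16116 genes the KO and control differences had a Pearson r of 0.0875 and a Spearman rho of 0.0848, where genes are not independent replicates. Both differences hold a step in sex-linked transcripts. Its size is not the same, as KO day 7 replicate 1 already had Xist at 12.26, so it need not cancel between them. The smallest p belonged to 4833407H14Rik, whose KO values overlapped (difference 0.50, SE 0.48) while its control values went from 7.97 to 9.31 at day 7 to 4.58 to 5.30 at day 21 (difference −3.61). Ache, Thoc5 (2.86, SE 0.51) and Rian followed. On the lower side, Pigt, a subunit of the GPI transamidase, had −2.06 (SE 0.43, KO −0.61 and control 1.45), Rasgrp1 −1.48 (SE 0.33), Aacs, an acetoacetyl-CoA synthetase, −1.31 (SE 0.31) and Trappc5, of the TRAPP vesicle tethering complex, −1.61 (SE 0.39). Averaged over its probe sets, Pigt gave 0.01 for this difference and 0.13 for the KO change.

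Gene lists for the pathways and cell types of HSCs are given by counts and medians, beside the 47.7% of all autosomal genes that were higher at day 21 and their median of 0.00. No member of the 45 lists was called, and members share the arrays and are not replicates. The highest median was that of erythroid genes, at 0.83 over 27 autosomal genes (0.17 in control), with 2 sex-linked members left out. At day 21, 19 of them were higher in KO HSCs and 18 in control HSCs. Of the 27, 7 had an unadjusted p under 0.05 between the KO days, all higher (background 1.71%), and 3 did not overlap (background 3.20%). For the KO change minus the control change, no member had an unadjusted limma p under 0.05 (background 2.64% higher and 1.86% lower). Gfi1b, which encodes a repressor needed for erythroid and megakaryocyte maturation, stood at 9.89, 10.30 and 10.59 at day 7 and at 11.40, 10.77, 11.79 and 11.93 at day 21 (difference 1.21, SE 0.35). The water channel gene Aqp1 stood at 8.78, 8.77 and 8.41 and then at 9.84, 9.67, 10.77 and 10.53 (1.55, SE 0.61). Ank1, the ankyrin of the red cell membrane, differed by 2.31 (SE 1.04), the blood group gene Kel by 1.99 (SE 0.72), Add2, an adducin, by 1.28 (SE 0.56), Rhd by 1.23 (SE 0.48) and Rhag by 1.13 (SE 0.46), each with overlap.

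For Ank1, Kel and Rhd the overlap came from KO day 21 replicate 2 alone. The mean log2 level of the erythroid list was 7.89, 8.26 and 7.52 on the day 7 KO arrays and 8.54, 9.10 and 8.80 on day 21 replicates 1, 3 and 4, but 7.47 on replicate 2, below all of day 7. All KO arrays of both days except that one and day 7 replicate 3 lay above the 7 control arrays (6.83 to 7.74). Not all members shared the difference. Hba-a1, an alpha globin, stayed between 4.64 and 5.15 on all 7 KO arrays, Slc4a1, the anion exchanger of red cells, differed by 0.00 (SE 0.93), and the iron transporter gene Slc25a37 by −1.01 (SE 0.86), whereas the spectrin gene Sptb had 1.11 (SE 0.59). Klf1, the erythroid transcription factor, differed by 1.22 (SE 0.80) in KO and by 2.28 in control. In a sorted population, more cells of a kind and more RNA per cell cannot be told apart.

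Megakaryocyte and platelet genes had the next highest median, 0.37 over 26 genes (0.09 in control), with 20 higher at day 21 in KO and 17 in control. In KO, 5 were higher without overlap (background 3.20%) and with an unadjusted p under 0.05 (background 1.71%), and none was lower at that p. For the KO change minus the control change, 3 members had an unadjusted limma p under 0.05, all higher (background 2.64%). Vwf, the gene for von Willebrand factor, stood at 7.41, 6.92 and 7.79 at day 7 and at 8.35, 8.45, 8.94 and 8.63 at day 21 (1.22, SE 0.31, unadjusted p = 0.00165). Itga2b, which encodes the platelet integrin CD41, stood at 9.20, 8.46 and 9.02 and then at 9.62, 10.22, 9.96 and 10.56 (1.20, SE 0.31, unadjusted p = 0.00168). Its partner Itgb3 stood at 9.26, 8.24 and 9.02 and then at 10.11, 10.75, 9.75 and 10.85 (1.52, SE 0.64). Ppbp, a platelet chemokine, differed by 1.37 (SE 0.46), and Gfi1b belongs to this list too. In control the differences were 0.79 for Vwf, 0.07 for Itga2b, −0.72 for Itgb3 and 0.05 for Ppbp. Pf4, another platelet chemokine, differed by 0.47 (SE 0.97) with wide overlap. Without KO day 7 replicate 2, the lowest in this list's mean level (7.20, against 7.88 and 7.91), the median was 0.22.

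Genes of stem cell identity and of progenitors differed in both directions and had medians near 0. The identity list had −0.04 over 36 genes, of which 17 were higher. Beside Cd34, Vwf and Gfi1b, the ETS factor gene Erg stood at 10.31, 10.32 and 10.16 at day 7 and at 10.12, 9.75, 9.57 and 9.54 at day 21, a small difference of −0.52 (SE 0.17, unadjusted p = 0.00900) without overlap. In control Erg had −0.60, a difference of like size. Lyl1, a basic helix-loop-helix factor, differed by −0.93 (SE 0.37). Of the multipotent and myeloid progenitor genes, 10 of 21 were higher and 10 lower. Notch1, the receptor, differed by −0.98 (SE 0.39; −0.64 in control), and Irf8, a factor of monocyte and dendritic cell fate, by 1.01 (SE 0.41), with day 21 replicate 1 at 8.24 and the other day 21 arrays at 6.39 to 6.58. Wfdc17 differed by 2.02 (SE 0.74), from 6.86, 7.68 and 8.26 to 9.96, 8.68, 9.54 and 10.28, and Csf2rb, the common beta chain of the receptors for IL-3, IL-5 and GM-CSF, by 1.60 (SE 0.77). In control HSCs these 2 had −1.67 and −1.04. Fzd9, a Frizzled receptor, differed by −0.77 (SE 0.29).

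Neutrophil granule genes, among which C/EBP factors have direct targets, had a median of −0.08 over 18 genes, with 2 higher, 13 lower and 3 equal. The 3 equal ones were at the floor on all KO arrays. Of the 18, 3 had an unadjusted limma p under 0.05, all lower (background 2.35%). S100a8 stood at 9.01, 5.94 and 9.04 at day 7 and at 4.84, 4.89, 4.69 and 4.85 at day 21, and S100a9 at 8.73, 6.75 and 9.58 and then at 5.36, 4.80, 5.16 and 5.58. These alarmins of neutrophils, usually made together, were near the floor on all 4 day 21 KO arrays, and their differences were −3.18 (SE 1.39) and −3.13 (SE 1.34). In control HSCs they ranged from 4.03 to 10.25 and from 4.76 to 10.88 with no order by day. Anxa1 differed by −1.40 (SE 0.64). Of the 18, 3 lay wholly below at day 21 (background 4.05%). Among further granule markers, Elane stayed between the floor and 4.30 and Ltf at 5.35 to 5.84 on all 7 KO arrays. Camp ran from 5.14 to 6.34, Ngp from 4.74 to 6.59 and Mpo from 4.60 to 7.98 on the same arrays. The mean level of the list was 5.98, 5.89 and 6.46 at day 7 and 5.64, 5.69, 5.51 and 5.63 at day 21, without overlap. That mean, unlike the median of −0.08, carries the large differences of S100a8, S100a9 and Anxa1. Its summed intensity was 3160 to 5450 at day 7 and 2150 to 3180 at day 21. Whether a few neutrophils or their free RNA had a part in the day 7 levels was not tested.

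Genes of division were lower at day 21 more often than not. Of 51 genes of G2 and mitosis, 39 were lower and 12 higher, with a median of −0.24 (0.00 in control), and 3 had an unadjusted p under 0.05, all lower (background 2.35%). Cdc20, which activates the anaphase-promoting complex, stood at 10.53, 8.93 and 8.62 at day 7 and at 7.91, 7.66, 9.20 and 7.50 at day 21 (−1.30, SE 0.51). The mitotic kinase Plk1 stood at 8.37, 7.82 and 7.32 and then at 6.74, 7.14, 7.03 and 6.76 (−0.92, SE 0.43), without overlap. Incenp, of the chromosomal passenger complex, differed by −1.05 (SE 0.45), and the spindle genes Tpx2 and Nusap1 by −1.41 (SE 0.89) and −1.52 (SE 0.76). The mean level of the list was 8.15, 8.39 and 8.75 at day 7 and 7.79, 7.78, 8.46 and 8.10 at day 21, so replicate 3 of day 21 overlapped day 7. All 7 KO arrays were above the 7 control arrays (6.85 to 7.49). The list's median was −0.51 without KO day 7 replicate 1.

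Of 38 genes of G1/S and DNA replication, 28 were lower, with a median of −0.29 (0.10 in control), and 5 did not overlap, all lower (background 4.05%), though none had an unadjusted p under 0.05. The helicase subunit gene Mcm7 stood at 11.57, 11.45 and 11.52 and then at 11.11, 10.64, 11.18 and 11.36 (−0.44, SE 0.36). Rfc4, of the clamp loader, differed by −1.18 (SE 0.76) and the E2F repressor gene E2f7 by −1.80 (SE 0.89). Of the cell cycle regulators, Cdkn1a, which encodes the CDK inhibitor p21, stood at 8.76, 9.39 and 9.17 at day 7 and at 10.33, 10.90, 9.71 and 10.02 at day 21. Its difference was 1.13 (SE 0.32, unadjusted p = 0.00331), its groups did not overlap, and control HSCs had −0.65. Its other probe set, about as bright, overlapped and differed by 0.40 (SE 0.53). On the first, the KO change minus the control change was 1.78 (SE 0.45, unadjusted p = 0.00153, adjusted p = 0.760). Cdkn1a had differed from control by −1.87 (SE 0.34) at day 7 and differed by −0.09 (SE 0.29) at day 21. Both values share the KO arrays with the difference between days. Ccnd2, cyclin D2, was at 10.66, 10.54 and 10.45 and then at 10.15, 10.32, 10.17 and 10.03 on its brightest probe set (−0.39, SE 0.12), with −0.57 to −1.31 on its other probe sets, and its kinase Cdk4 differed by −0.60 (SE 0.26). Cdkn2d, another CDK inhibitor, differed by 0.97 (SE 0.43).

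HSC quiescence genes as a list showed no common direction, with 13 of 26 higher, 13 lower and a median of 0.02. Gadd45g, a stress-induced growth restrainer, stood at 7.72, 7.17 and 7.44 at day 7 and at 8.90, 8.84, 9.35 and 9.39 at day 21 (1.68, SE 0.43, unadjusted p = 0.00185; 0.65 in control). The antiproliferative gene Btg1 stood at 10.02, 10.58 and 10.26 and then within 10.69 to 10.76 (0.44, SE 0.19; −0.57 in control). Ccng1, a p53 target, and Txnip, which restrains glucose uptake, were lower, with −0.64 (SE 0.28) and −0.57 (SE 0.26). Of 21 p53 targets, 11 were higher and 10 lower.

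**Figure D4:**
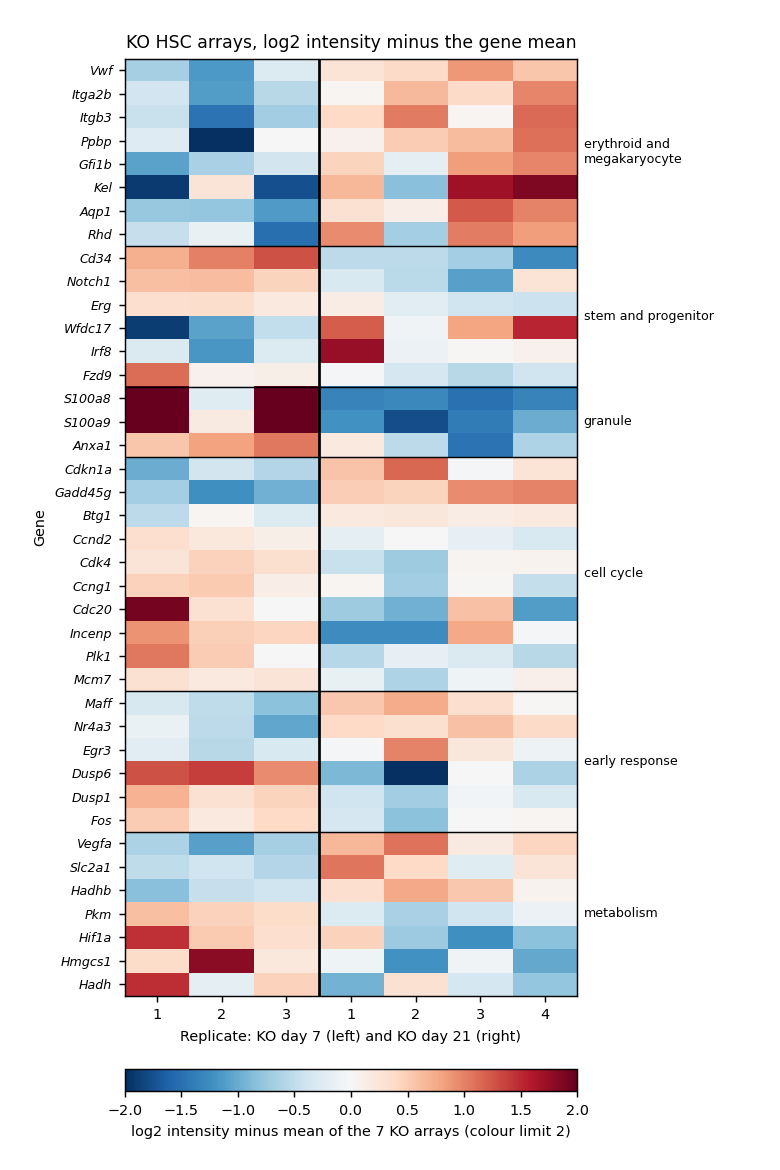
Log2 intensity minus the mean of the 7 KO arrays (colour, limited at 2 in either direction) for named genes (rows) by role on the 3 day 7 and 4 day 21 KO arrays (columns). The megakaryocyte genes drawn are those with the smallest p of their list, of whose 26 genes 6 were lower at day 21. They are redder on all 4 day 21 arrays, S100a8 and S100a9 are blue there, and day 21 replicate 2 departs from the other 3 for Kel and Rhd.

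Early response genes differed in both directions. Of 33 immediate early and AP-1 genes, 15 were higher and 18 lower (median −0.05, and −0.39 in control), yet 7 lay wholly above and 4 wholly below, against 3.20% and 4.05% of all genes. Among those above were Maff, a small MAF factor (10.22, 10.03 and 9.72 at day 7, and 11.08, 11.29, 10.88 and 10.57 at day 21; 0.97, SE 0.24, unadjusted p = 0.00140), the orphan nuclear receptor gene Nr4a3 (0.98, SE 0.28), Egr3 (0.63, SE 0.29) and Junb (0.58, SE 0.35). Among those below were Fos (−0.64, SE 0.27) and the MAP kinase phosphatase genes Dusp1 (−0.84, SE 0.26) and Dusp6. Dusp1 and Fos had control differences of −0.91 and −1.03, of the same sign and at least as large, whereas Maff and Nr4a3 had −0.20 and −0.61.

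Genes of interferon response, which pIpC induces, had no common direction in KO HSCs between the days, with 18 of 36 higher and a median of 0.02 (−0.15 in control). Ifih1, a sensor of double-stranded RNA, differed by −1.76 (SE 0.79) with overlap, the one member with an unadjusted p under 0.05. Of 17 NF-kB feedback genes 12 were higher (median 0.17), and Nfkb2 differed by 1.27 (SE 0.54). Near the floor, Nlrp3 differed by −0.36 (SE 0.13), Il1b by 0.57 (SE 0.23) and Socs1, a brake of cytokine signalling, by 0.38 (SE 0.15). Genes of the unfolded protein response were higher in 16 of 21 (median 0.17, and −0.13 in control), with the chaperone gene Hspa5 at 12.63, 12.57 and 12.21 and then at 13.02, 13.10, 12.70 and 12.79 (0.43, SE 0.19) and Manf at 0.79 (SE 0.36). Dnaja1, a heat shock co-chaperone, had 0.30 (SE 0.12). Clock and glucocorticoid response genes were higher in 16 of 23 (median 0.18, and −0.16 in control), among them Bhlhe40 (0.93, SE 0.31), Bhlhe41 (0.84, SE 0.36) and Per1 (0.79, SE 0.36). The median of that list was 0.04 without KO day 7 replicate 1.

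Genes of the respiratory chain, glycolysis and fatty acid oxidation were more often lower at day 21. For glycolysis and HIF genes control HSCs went the same way. Their median was −0.13 in KO and −0.18 in control, with 9 and 10 of 24 higher. Of 55 nuclear genes of the respiratory chain, 41 were lower, with a median of −0.27 where control HSCs had 0.17. No member had an unadjusted p under 0.05, and Ndufs3, of complex I, was the 1 member of 55 without overlap, a share below the 4.05% of all genes (10.11, 9.72 and 10.04 against 9.23, 8.83, 9.57 and 9.15; −0.76, SE 0.41). The list's mean level was 10.35, 10.53 and 10.80 at day 7 and 10.18, 9.95, 10.68 and 10.56 at day 21, and without KO day 21 replicate 2 its median was −0.10. The proteasome list had 22 of 31 lower (median −0.15, and 0.14 in control). Among glycolysis and HIF genes, Pkm, pyruvate kinase, had a mean log2 level of 11.12 ± 0.12 (SD, n = 3) at day 7 and 10.29 ± 0.23 (SD, n = 4) at day 21, with no overlap (−0.83, SE 0.23, unadjusted p = 0.00322; 0.09 in control), and Hif1a differed by −1.35 (SE 0.50) on its brightest probe set and by −0.58 to 0.29 on the others. The HIF targets Slc2a1, a glucose transporter gene, and Vegfa were higher without overlap, by 0.86 (SE 0.31; 0.48 over all probe sets) and 1.39 (SE 0.54). In fatty acid oxidation the trifunctional protein gene Hadhb differed by 0.99 (SE 0.25) and Hadh by −1.02 (SE 0.47), where 13 of 20 members were lower (median −0.13, and 0.03 in control). Of cholesterol synthesis genes 10 of 16 were higher in KO (median 0.19), and 10 of 16 in control too (median 0.18). Hmgcs1 differed by −1.39 (SE 0.46, and −0.70 over all probe sets). The mitochondrial ribosome gene Mrps7 stood within 8.64 to 8.74 at day 7 and within 9.13 to 9.87 at day 21 (0.77, SE 0.24), while that list's median was −0.14 over 57 genes.

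Among chromatin and repair genes, Jarid2, a cofactor of Polycomb repressive complex 2, stood at 8.11, 8.57 and 8.47 at day 7 and at 9.80, 9.81, 8.87 and 9.76 at day 21 (1.17, SE 0.35, unadjusted p = 0.00456), without overlap, against −0.13 in control. Its other probe sets overlapped and differed by 0.22 (SE 0.91) and −0.41 (SE 0.53). The H3K27 demethylase gene Kdm6b differed by 0.69 (SE 0.22), also without overlap. Rad51c, of homologous recombination, stood at 6.50, 6.41 and 6.31 and then at 5.37, 5.23, 5.36 and 4.99 (−1.17, SE 0.31, unadjusted p = 0.00207; 0.07 in control). Rac2, the GTPase of homing and adhesion in blood cells, differed by −0.90 (SE 0.34). Fcer1a, the IgE receptor chain of mast cells and basophils, was at the floor on all 7 control arrays and at 4.28, 4 (the floor) and 7.18 and then 5.71, 6.30, 7.48 and 6.61 in KO (1.37, SE 0.59). It passed over all genes without KO day 7 replicate 3 (2.38, SE 0.33, adjusted p = 0.0499), while the list of its cell types had a median of −0.02 over 10 genes.

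**Figure D5:**
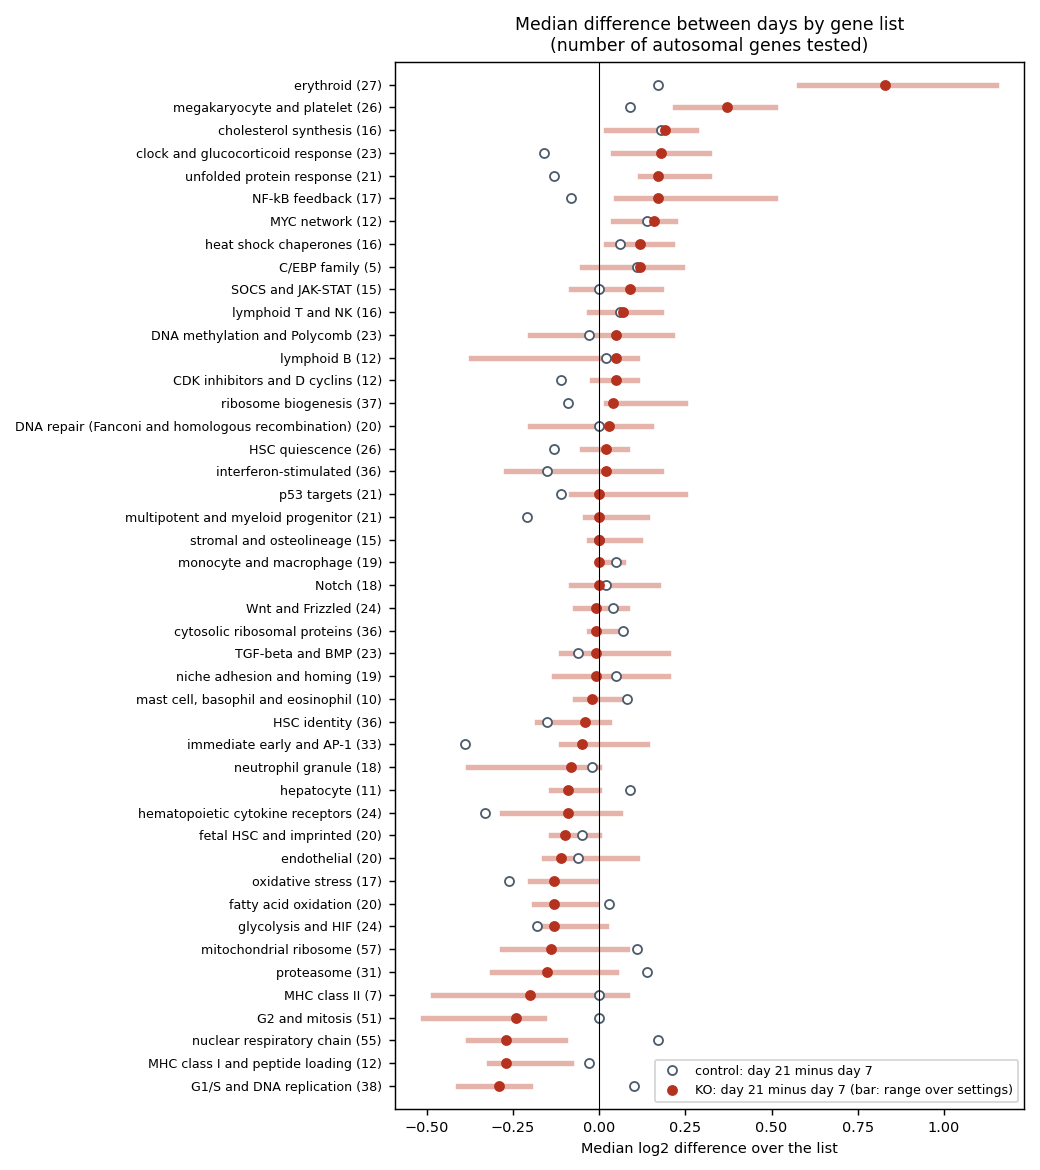
Median log2 difference between day 21 and day 7 (x axis) for 45 gene lists (y axis, with the number of autosomal genes tested), filled dots for KO, open dots for control, and bars for the range of the KO median over the settings tried. Erythroid (0.83) and megakaryocyte (0.37) genes have the highest KO medians, and G1/S genes (−0.29), MHC class I genes and the respiratory chain (−0.27 each) the lowest.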

How the data were processed

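RNA of sorted mouse HSCs was amplified (Ovation Pico WTA System V2) and hybridised to Affymetrix arrays, per the labels' protocols. The deposited values are intensities on a linear scale for 45101 probe sets; RMA is named in the submitters' processing notes, without a version, and no source states the scaling. Deposited intensities went no lower than 16, where 20.4% to 23.3% of probe sets of the KO arrays lay. Arrays give no count depth, and their number limits the precision.

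Log2 was taken without a pseudocount. Platform annotation gave 34958 probe sets 1 gene and 932 several, and 34754 matched RefSeq GRCm38.p6, used for names, chromosomes and gene order. The probe set with the highest mean stood for a gene: of 18193 genes, 1409 never rose above the floor, and 16784 were tested (16116 autosomal, 528 on X or Y, 140 unplaced). limma 3.58.1 in R 4.3.3 fitted 1 mean per group to all 17 arrays (residual df 12, prior df 1.5), and calls needed an adjusted p (Benjamini-Hochberg, over all 16784) under 0.05. The fit was tested on simulated data. No arrays were identical.

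The compared groups and the 45 lists (1160 entries) were chosen with earlier results of these data known, and the same holds for the rule on named genes: Cebpa and Spi1, up to 10 autosomal genes per direction with non-overlapping groups (called ones first, then the smallest p), 4 per direction for the difference from control, and list members with the smallest p. Further genes were named after their values were seen. Same-numbered KO arrays deviated from their group means with correlations of 0.00, 0.00 and 0.07, so the numbers were not taken as pairs. Some genes are not analysed here.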

Additional observations from a re-analysis of the deposited data

Results flagged for a closer look

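For 4 of 100 sets of KO day 21 values examined, 1 of the 4 arrays stood apart by Dixon's test (the gap to the nearest array over the range of the group), and chance gives about 1 in 20. Jarid2 was at 8.87 on replicate 3, with the others at 9.76 to 9.81. Manf was at 10.79 on replicate 4, with the others at 10.20 to 10.25. Irf8 was at 8.24 on replicate 1, with the others at 6.39 to 6.58. Rhd was at 6.80 on replicate 2, with the others at 8.32 to 8.50.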

How the results depend on the processing

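The number of autosomal genes called between the days, 2 as reported, was 2 with log2(value + 16) or with genes above the median probe set, and 3 with array weights. It was 1 with arrays centred on their median, with quantile normalization, with a trended and robust prior, and with the replicate block, under which the 1 gene called was Tmem38a and neither Ache (adjusted p = 0.252) nor Ufsp1 (0.0602). It was 0 with only the 7 KO arrays, only the 14 adult arrays, no filter on dim genes, the mean of all probe sets, an unmoderated model, or with a covariate for each array's share of floor values or for its 3' over 5' control ratio. Of alternatives chosen after seeing the data, it was 0 when adjusted over autosomal genes alone and 1 (Gimap7) without both KO day 7 replicate 1 and KO day 21 replicate 2. Leaving out single KO arrays gave 0 (KO day 21 replicate 2, 3 or 4) to 3 (KO day 7 replicate 1), and 1, 4921517D16Rik, without KO day 7 replicate 2. For Ufsp1 16 of 23 alternatives and for Ache 20 of 23 ended the call, with adjusted p from 0.00302 to 0.256 and from 7.6e-04 to 0.252, and none turned the direction. The number of genes whose change differed from control, 0 as reported, ranged from 0 to 2 on leaving out single arrays (2 without control day 7 replicate 1 or 3, and 1 without KO day 7 replicate 2, KO day 21 replicate 2 or control day 21 replicate 3 or 4, the second to last of these calling Ache) and was 0 in the other alternatives. With the mean of all probe sets of a gene, 29 of 97 KO differences moved by over 1.5 times or turned, among them Rasgrp1 (−0.42), Aida (−0.95), Gimap7 (−0.92), Cav2 (−1.28), Dna2 (−0.89), Anxa1 (−0.80), Incenp (−0.38), Tpx2 (−0.42), Ccng1 (−0.26), Bhlhe41 (0.35), Hadhb (0.59), Rac2 (−0.59), Ank1 (1.26), Add2 (0.60), Csf2rb (0.90), Aacs (−0.46) and Trappc5 (−0.39). Of 97 genes examined for the KO difference, 92 kept their sign throughout. Exceptions were Cebpa (−0.17 with the replicate block, −0.08 without KO day 7 replicate 3, −0.02 without KO day 21 replicate 4, and at most 0.24 on leaving out an array), Mirg (−0.16 with the replicate block), Pf4 (−0.08 without KO day 7 replicate 2 to 0.77 without KO day 7 replicate 3), and, with the mean of all probe sets, Dnaja1 (−0.26) and Pigt (0.13, and 0.01 for its difference from control). Of 45 list medians 15 kept 1 sign throughout, among them erythroid (0.58 to 1.15), megakaryocyte (0.22 to 0.51), G2 and mitosis (−0.51 to −0.16), G1/S (−0.41 to −0.20) and respiratory chain genes (−0.38 to −0.10). Causes of these shifts were not tested. Values near the floor are bounds, and differences from them are understated.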

Other observations

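At the level of single probe sets, 8 of 40023 were called between the days in KO HSCs, of which 3 were autosomal. Beside Ufsp1 and Ache this was a probe set of Abcc10, a transporter gene on chromosome 17, at −1.69 (adjusted p = 0.0496 by limma), while the brighter probe set that stood for Abcc10 differed by 0.56 (SE 0.86). A further 3 of the called probe sets are not named here, and the other two belong to the Y-linked Eif2s3y.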
